A study of Mus musculus with 2 samples.

Results

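The TNF superfamily comprises cytokine-like ligands, most of them membrane proteins of lymphocytes and myeloid cells, and the receptors that bind them. All 39 listed mouse genes of the family, 17 ligands and 22 receptors, were followed here in Menin KO against Menin WT CD4 T cells. Members were chosen by the accession each array probe carries, matched to the RefSeq gene table. Of the 39, 38 had a probe (48 probes in all), 35 passed the scanner software's well-above-background flag in 1 or both samples, and 34 had a usable difference, out of 13510 such genes on the arrays. Tnfsf13, encoding APRIL, had no probe of its own.

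Ligands of this family act as trimers, on the cell surface or after shedding. They cluster receptors with cysteine-rich extracellular domains. Some receptors carry a death domain and can start apoptosis through adaptor proteins and caspases, others recruit TRAF proteins and activate NF-kB, and several serve as costimulatory receptors that prolong the response of an activated T cell. T cells express both sides of the family, most of it only after stimulation.

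There were 1 Menin KO sample and 1 Menin WT sample, each total RNA on 1 one-colour array. Menin is the product of Men1 and a component of MLL histone methyltransferase complexes. In both groups naive CD4+CD62L+ T cells came from spleens of C57BL/6J females. They received anti-TCR-β (3 µg/ml, bound to the plate), anti-CD28 (1 µg/ml) and IL-2 (2.5 ng/ml) over 2 days, and IL-2 over the next 3 days. The age of the mice, the way in which Men1 was deleted and the number of mice behind each sample are not given in the sources used here. The probe of Men1 read 459 in KO and 1081 in WT, a 2.38-fold lower signal. Whether that probe lies in the deleted part is not known here, so it does not check the label.

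With 1 array a group no difference was tested, and every value below compares these 2 arrays, not the genotypes at large. Signals are Agilent processed signals (background-subtracted brightness on a linear scale). Differences are log2 KO minus WT after each array was scaled to its 75th percentile (650.3 in KO, 644.5 in WT), and a gene was counted as different at 2-fold or more. The ± after a difference is the scanner software's own error estimate for the spots. For bright probes this estimate was near 0.20 whatever the gene, so it is not a scatter measured for that gene. For probes printed 10 times on each array the spread over spots is given as an SD in place of the estimate. That SD covers technical scatter on the array only. Neither includes variation between mice, cultures or labelling reactions. Where 1 of the 2 arrays was not well above background the fold is a bound, written "at least". Of the non-control spots, 63.5% in KO and 59.5% in WT were well above background, and the lowest such signal was 10.4 in KO and 14.0 in WT. Signals of different genes come from different probes and cannot be set against each other. In bulk RNA, fewer cells of a type and less RNA per cell cannot be told apart.

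Of the 34 members with a value, 7 were at least 2-fold higher in KO, 8 were at least 2-fold lower, 17 lay between, and for 2 the bound did not reach 2-fold. The called members are 20.6% and 23.5% of the members with a value, where 10.8% of all named genes were higher and 5.14% lower by the same rule. The medians of ligands and receptors lay on different sides of 0. Among 13 ligands with a value, 1 was higher and 5 were lower, with a median log2 difference of -0.80. Among 21 receptors, 6 were higher and 3 were lower, with a median of 0.45. The median of all named genes was -0.01. After normexp background correction, an alternative that models the local background, 4 members were higher and 7 lower (4.72% and 13.2% of all named genes), and the receptor median was -0.14.

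**Figure D1:**
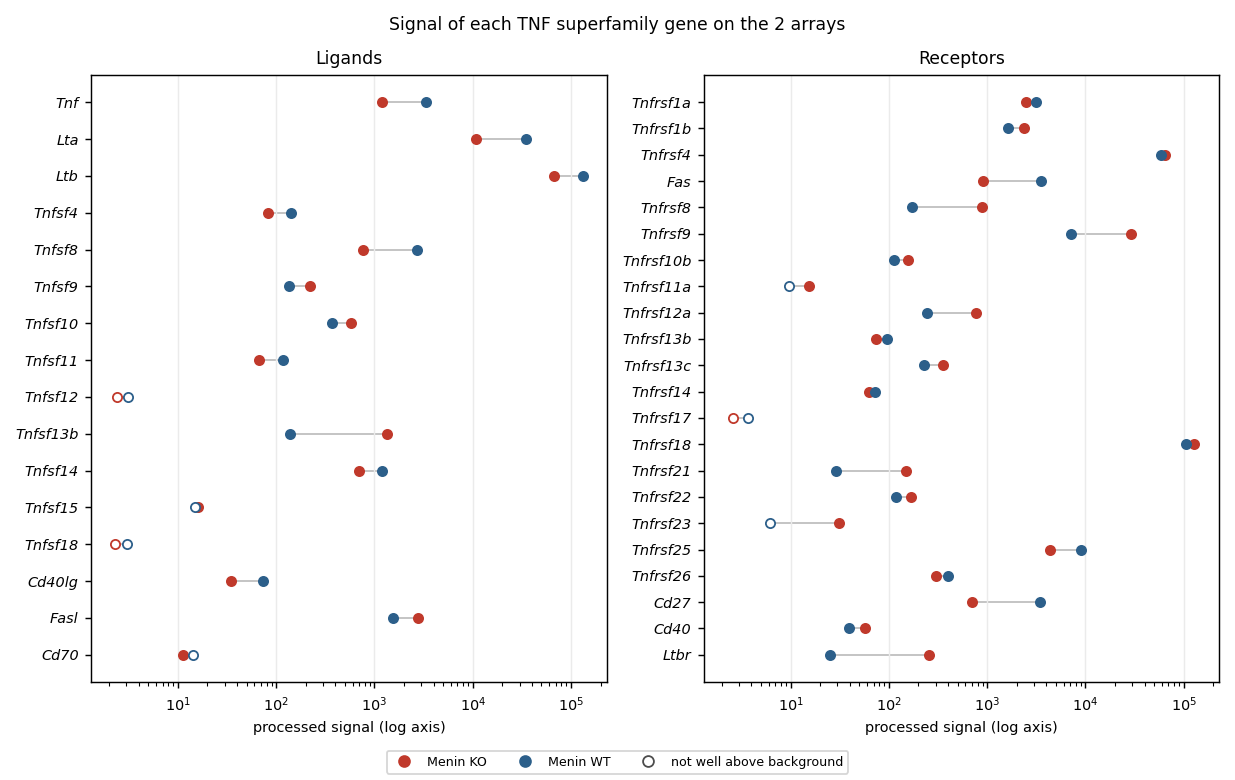
Processed signal (log axis) of the 16 ligand and 22 receptor genes with a probe, in Menin KO and Menin WT, with open points for signals not well above background. Lta lies at 10908 in KO against 35122 in WT, while Tnfrsf9 lies at 28766 in KO against 7171 in WT.

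**Figure D2:**
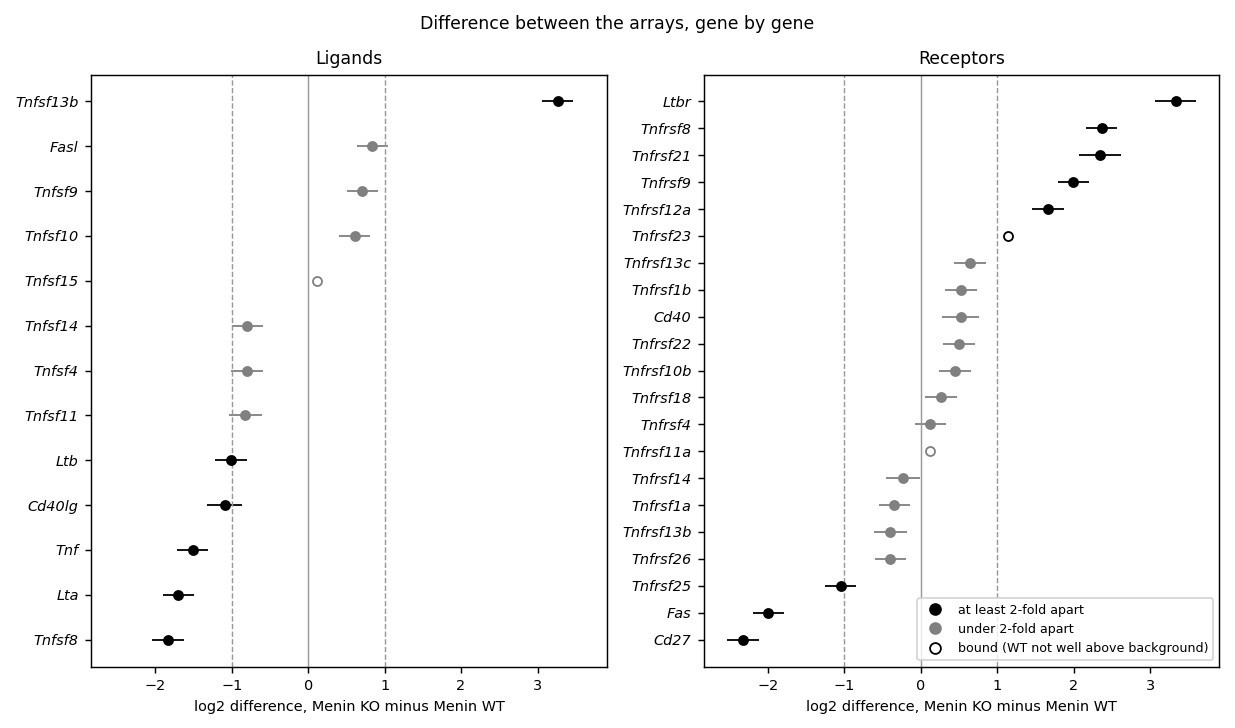
Log2 difference, KO minus WT, of each ligand and receptor with a value, ordered by size, with the scanner software's error estimate as bars and 2-fold limits dashed. Of the 13 ligands 8 lie below 0 (median -0.80) and 5 above it, Tnfsf13b highest at 3.26, and receptors spread from -2.33 for Cd27 to 3.33 for Ltbr.

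Promoters of the members were read from RefSeq's promoter table (GRCm38.p6), as the 250 bases before each gene start. AP-1 and NF-kB are among the activation-induced factors of T cells. Bach2, a repressor that binds AP-1-like sites, read 604 in KO and 4643 in WT (7.76-fold lower). The AP-1 and NF-kB motifs were searched on both strands, AP-1 as TGANTCA, which is its own reverse complement, and NF-kB by its consensus. The table held 33 windows for 30 members. AP-1 matched 6 of these and NF-kB 3, against 6.75% and 3.90% of all 32851 windows in the table. Among members at least 2-fold apart, Tnfrsf9, Tnfsf13b and Tnfrsf25 had more than 1 window, those of Tnfsf13b overlapping, and Cd40lg had none. Counted by window, AP-1 matched 3 of 9 windows of higher genes and 1 of 8 windows of lower genes. NF-kB matched 2 of the 9 and 1 of the 8. These counts are descriptions of letters in a short window. No direction of difference can be read from them. The matched windows of members at least 2-fold apart are printed 5′ to 3′ on the strand of the gene, with the matches in capitals, to show where each match lies:
Tnfrsf8, chr4:145315165-145315414, minus strand: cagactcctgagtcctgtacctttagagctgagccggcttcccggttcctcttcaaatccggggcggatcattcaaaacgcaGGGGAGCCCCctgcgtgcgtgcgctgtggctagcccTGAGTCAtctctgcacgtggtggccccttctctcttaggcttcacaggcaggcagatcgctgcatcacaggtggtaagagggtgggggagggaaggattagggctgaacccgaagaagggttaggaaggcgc
Tnfrsf9, chr4:150927749-150927998, plus strand: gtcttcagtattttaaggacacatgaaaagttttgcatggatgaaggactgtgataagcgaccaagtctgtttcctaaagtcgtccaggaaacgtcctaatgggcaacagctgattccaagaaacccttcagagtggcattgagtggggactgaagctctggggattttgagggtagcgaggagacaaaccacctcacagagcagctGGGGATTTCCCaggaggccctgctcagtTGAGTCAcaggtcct
Tnfsf13b, chr8:10006383-10006632, plus strand: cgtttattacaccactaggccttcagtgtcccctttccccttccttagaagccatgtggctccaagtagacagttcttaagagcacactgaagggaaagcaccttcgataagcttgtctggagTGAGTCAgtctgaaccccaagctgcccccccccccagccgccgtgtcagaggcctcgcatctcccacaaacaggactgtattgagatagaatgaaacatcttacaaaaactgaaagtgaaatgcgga
Fas, chr19:34290409-34290658, plus strand: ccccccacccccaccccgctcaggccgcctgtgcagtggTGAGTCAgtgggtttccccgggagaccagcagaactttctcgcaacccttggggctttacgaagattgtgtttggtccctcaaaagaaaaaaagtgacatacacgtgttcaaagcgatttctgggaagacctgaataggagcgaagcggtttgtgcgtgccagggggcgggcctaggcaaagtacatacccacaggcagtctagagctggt
Ltb, chr17:35194257-35194506, plus strand: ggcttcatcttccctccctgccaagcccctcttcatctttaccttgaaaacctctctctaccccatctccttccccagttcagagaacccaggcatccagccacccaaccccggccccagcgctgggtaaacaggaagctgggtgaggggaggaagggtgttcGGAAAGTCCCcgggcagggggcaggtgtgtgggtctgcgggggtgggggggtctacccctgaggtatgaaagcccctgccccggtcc

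Counting back from the gene start, in Tnfrsf8 the NF-kB match began at -168 and the AP-1 match at -132. In Tnfrsf9 the window of the downstream start held overlapping NF-kB matches at -43 and -42 and an AP-1 match at -15. The AP-1 match began at -127 in the downstream window of Tnfsf13b and at -211 in Fas, and the NF-kB match of Ltb began at -87. The upstream windows of Tnfrsf9 and Tnfsf13b held neither. No match says only that these letters are not in the window.

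Tnf, Lta and Ltb, which encode TNF and the lymphotoxins alpha and beta, were all lower in KO. Tnf read 1110 to 1247 over 10 spots in KO and 3262 to 3531 over 10 spots in WT. The spots of the arrays did not overlap, and the log2 difference was -1.51 with an SD over spots of 0.04 (2.85-fold lower). Lta, whose product also forms a trimer with lymphotoxin beta, read 10908 in KO and 35122 in WT (3.25-fold lower, log2 difference -1.70, SD over 8 spots usable on both arrays 0.02). Ltb read 66773 in KO and 133361 in WT, a log2 difference of -1.01 ± 0.20 that lay just past the 2-fold limit and was -0.74 after normexp. Tnfsf14, encoding LIGHT, read 689 in KO and 1185 in WT (-0.80 ± 0.20).

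Of the receptors for these ligands, Ltbr alone was at least 2-fold apart. Ltbr, the lymphotoxin beta receptor, which signals to NF-kB and is mainly known from stromal and myeloid cells, read 257 in KO and 25.3 in WT. It was 10.1-fold higher, with a log2 difference of 3.33 ± 0.27. The WT signal was dim, and the difference ranged from 0.75 to 3.45 over the alternatives, lowest after normexp. Tnfrsf1a, the death domain receptor of TNF, had a median of 2494 in KO and 3183 in WT over its usable spots (-0.35, SD 0.04). Tnfrsf1b, the other TNF receptor and prominent on activated T cells, had spot medians of 2388 in KO and 1638 in WT (0.52, SD 0.03). For both receptors the spots of the arrays did not overlap, although the differences were under 2-fold. For Tnfrsf1b 1 WT spot read 121501 and carried an outlier flag; with it kept the log2 difference was -0.10. Tnfrsf14, the receptor HVEM, read 62.8 in KO and 73.0 in WT (-0.23 ± 0.22). Its other partners are immunoglobulin family proteins, and of these the inhibitory receptor Btla read 113 in KO and 725 in WT (6.48-fold lower), while Cd160 read 55.9 in KO and 27.8 in WT (0.99 ± 0.27).

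Costimulatory receptors differed in both directions. Cd27, which supports survival of naive and memory T cells, read 698 in KO and 3471 in WT (5.02-fold lower, log2 difference -2.33 ± 0.20). Its ligand Cd70 read 11.2 in KO and 14.4 in WT, was well above background in KO only, and gave no usable bound. Tnfrsf8, encoding CD30, a receptor of activated T cells, read 893 in KO and 172 in WT (5.15-fold higher, 2.37 ± 0.21). Its ligand Tnfsf8, CD30L, went the other way, with 763 in KO and 2699 in WT (3.57-fold lower, -1.84 ± 0.20).

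Tnfrsf9, encoding CD137, which is induced by activation and drives T cell expansion, was 3.98-fold higher. Its brighter probe read 28766 in KO and 7171 in WT and its other probe 4717 in KO and 1109 in WT, with log2 differences of 1.99 and 2.08. The ligand Tnfsf9 read 223 in KO and 135 in WT (0.71 ± 0.21), a difference that was 0.04 after normexp. Tnfrsf25, the death domain receptor DR3, was 2.07-fold lower: 4359 in KO and 8927 in WT. A second Tnfrsf25 probe gave -1.14, yet after normexp the gene was under the limit at -0.76. Tnfsf15, its ligand, was well above background in KO only (16.2 in KO, 14.9 in WT), a bound of at least 1.08-fold.

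Tnfrsf4 and Tnfrsf18, encoding the costimulatory receptors OX40 and GITR, were nearly equal on the arrays. Tnfrsf4 read 64989 in KO and 59172 in WT (0.12 ± 0.20) and Tnfrsf18 read 128104 in KO and 105867 in WT (0.26 ± 0.20). For Tnfrsf4 the difference was smaller than its error estimate. Tnfsf4, the ligand of OX40, read 82.0 in KO and 142 in WT (-0.80 ± 0.21). Tnfsf18, the ligand of GITR, did not pass the background flag (2.28 in KO, 3.04 in WT). Cd40lg, the T cell helper signal to B cells and dendritic cells, read 34.6 in KO and 73.3 in WT, a 2.14-fold lower signal. Its log2 difference of -1.09 ± 0.23 was -0.54 after normexp with aberrant backgrounds replaced and under the limit after loess too. Cd40, its receptor, had spot medians of 57.0 in KO and 37.9 in WT, with a log2 difference of 0.52. Over 6 spots usable on both arrays the mean difference was 0.49 (SD 0.07). After normexp the difference of Cd40 was -0.76.

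Fas, the death receptor that removes activated T cells, was lower in KO, while its ligand was not. Fas read 851 to 951 over 10 spots in KO and 3419 to 3685 over 10 spots in WT. The spots did not overlap, with a log2 difference of -2.00 and an SD over spots of 0.05 (3.99-fold lower), and its second probe gave -1.91. Fasl read 2703 to 2846 in KO and 1486 to 1617 in WT, again without overlap, and was 1.79-fold higher (0.84, SD 0.02). Tnfsf10, encoding TRAIL, read 572 in KO and 372 in WT (0.61 ± 0.20). Its death domain receptor Tnfrsf10b read 157 in KO and 114 in WT (0.45 ± 0.21), and its 3 probes gave 0.45 to 0.64, but after normexp it was at -0.29. The mouse TRAIL decoy receptors are encoded by Tnfrsf22 and Tnfrsf23. Tnfrsf22 read 169 in KO and 118 in WT (0.50 ± 0.21), and was at -0.22 after normexp. Tnfrsf23 read 31.2 in KO and 6.16 in WT, where it was not well above background, and was at least 2.21-fold higher, a bound that normexp with replaced backgrounds lowered to 0.18 on the log2 scale. Tnfrsf26, encoded beside them, read 304 in KO and 398 in WT (-0.40 ± 0.20). Tnfrsf21, the death domain receptor DR6, was 5.09-fold higher, with 150.4 in KO and 29.3 in WT. Its second probe gave 2.03, and the difference was 1.04 after normexp with replaced backgrounds and 0.05 after normexp as first planned.

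Tnfsf13b, encoding the B cell survival factor BAFF, was the one ligand at least 2-fold higher. It read 1334 in KO and 138 in WT, a 9.60-fold difference (3.26 ± 0.21), and stayed between 2.28 and 3.37 over the alternatives. Of the receptors of BAFF and APRIL, which are chiefly B cell proteins, none was 2-fold apart. Tnfrsf13c, the BAFF receptor, read 358 in KO and 227 in WT (0.64 ± 0.21), and Tnfrsf13b, TACI, read 73.8 in KO and 96.5 in WT (-0.40 ± 0.21). Tnfrsf17, BCMA, did not pass the background flag (2.58 in KO, 3.70 in WT). A probe of Tnfsfm13, the transcript that reads through Tnfsf12 into Tnfsf13, was at least 2.27-fold higher (32.1 in KO, 7.29 in WT), but it gives no separate level of either gene.

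Of the ligands and receptors best known from bone and injured tissue, Tnfrsf12a was 2-fold apart. Tnfrsf12a, Fn14, read 773 in KO and 242 in WT (3.17-fold higher, 1.66 ± 0.20), whereas its ligand Tnfsf12, TWEAK, did not pass the background flag (2.37 in KO, 3.12 in WT). Tnfsf11, RANKL, which activates dendritic cells and osteoclast precursors, read 67.6 in KO and 118 in WT (-0.82 ± 0.21), and its second probe gave -0.73. Its receptor Tnfrsf11a, RANK, read 15.4 in KO and 9.59 in WT, where it was near background, a bound of at least 1.09-fold. Among 7 further genes of the superfamily (Eda, Edar, Eda2r, Ngfr, Tnfrsf11b, Tnfrsf19 and Relt), 4 had a value and 0 were 2-fold apart. The largest of these were Relt (-0.63 ± 0.20) and Ngfr (0.46 ± 0.37). Over all named genes 10.8% were higher and 5.14% lower.

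At the 2-fold limit, no pair of ligand and receptor had both genes apart in the same direction. By that rule 10.8% of all named genes were higher and 5.14% lower. How many such pairs unrelated genes would give was not tested. Of 26 known pairs, 18 had a value on both sides without a bound under 2-fold. In 2 of the 18 both genes were at least 2-fold apart and in opposite directions: Tnfsf8 was lower with Tnfrsf8 higher, and Ltb was lower with Ltbr higher. The second pair leaves this count after normexp without and with replaced backgrounds (Ltb at -0.74 and -0.98) and with the authors' values (-0.99). In 8 pairs the ligand alone was 2-fold apart, in 4 the receptor alone, and in 4 neither. The result depends on the limit. At 1.5-fold both genes were higher in Tnfsf9 with Tnfrsf9, Tnfsf10 with Tnfrsf23 (a bound) and Tnfsf13b with Tnfrsf13c. Fasl with Fas and Tnfsf14 with Ltbr then joined the pairs in opposite directions. Several ligands and receptors stand in more than 1 pair, so these counts are not independent.

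**Figure D3:**
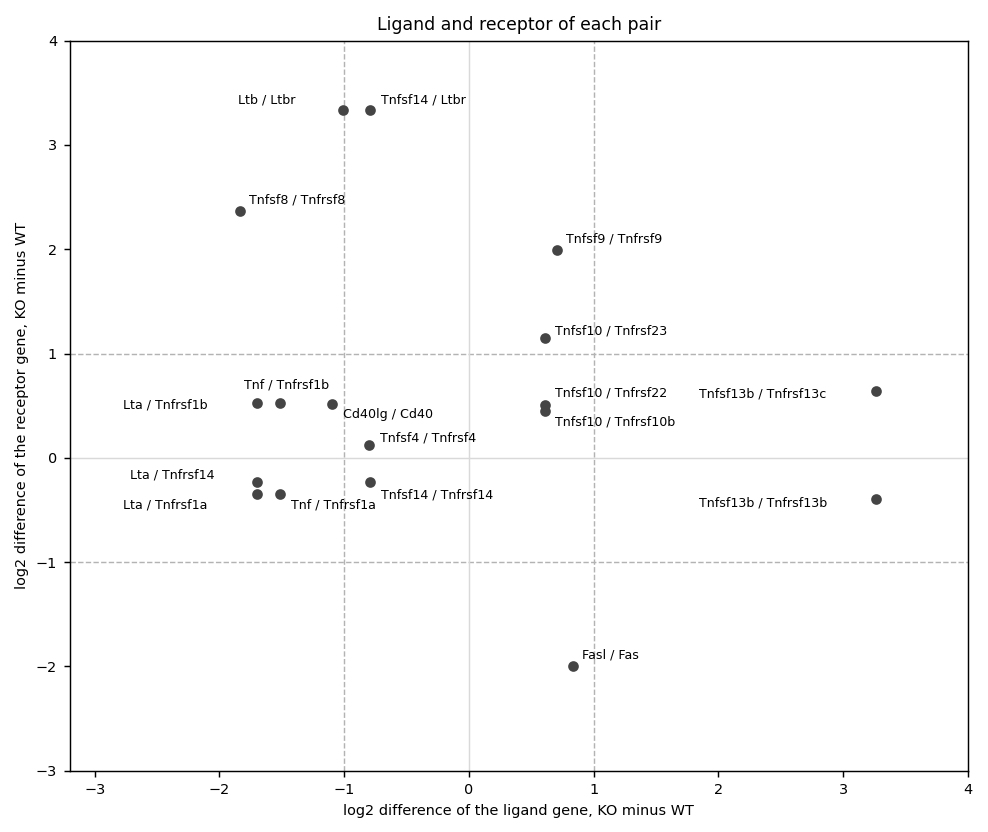
Log2 difference (KO minus WT) of the receptor gene against that of the ligand gene, dashed at 2-fold. Shown are the 18 pairs with a value on both sides and no bound under 2-fold. No pair lies beyond the limits in the lower left or upper right corner. Tnfsf8 with Tnfrsf8 and Ltb with Ltbr lie in the upper left, and Fasl with Fas is at 0.84 and -2.00. The value of Tnfrsf23 is a bound.

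Many family genes lie beside each other, and neighbours did not always share a direction. By the gene order of the RefSeq table (GRCm38.p6), Ltb, Tnf and Lta adjoin, and all 3 were lower (-1.01, -1.51 and -1.70). Cd27, Ltbr and Tnfrsf1a are separated by 1 protein-coding gene each, and their differences were -2.33, 3.33 and -0.35. Tuba3a, between Cd27 and Ltbr, had a log2 difference of -0.40. Tnfrsf1b (0.52) adjoins Tnfrsf8 (2.37), and Tnfrsf4 (0.12) adjoins Tnfrsf18 (0.26). Tnfsf15, with a bound of 0.11, adjoins Tnfsf8 (-1.84). Tnfsf18, without a value, lies between Tnfsf4 (-0.80) and Fasl (0.84). Cd70, also without a value, lies between Tnfsf9 (0.71) and Tnfsf14 (-0.80). In the run of Tnfrsf26, Tnfrsf22 and Tnfrsf23 the values were -0.40, 0.50 and a bound of 1.14. These last genes are close relatives, and whether a probe of one also reads another was not tested.

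**Figure D4:**
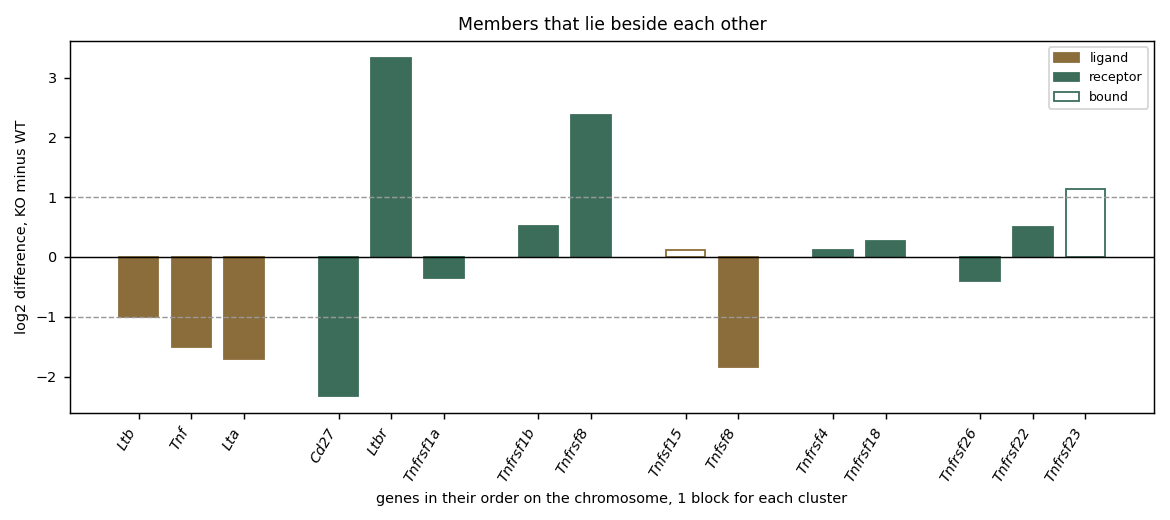
Log2 difference (KO minus WT) of members that lie beside each other, in gene order, with 2-fold limits dashed, ligands and receptors in different colours and open bars for bounds. Ltb, Tnf and Lta all lie below -1, whereas Cd27 at -2.33 and Ltbr at 3.33 point in opposite directions. Runs that hold a member without a value are not drawn.

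Genes that act after the receptors were read against the same shares of all named genes, 10.8% higher and 5.14% lower. Of 20 receptor adaptors and ubiquitin enzymes with a value, none was higher, 1 was lower (5%, near that share) and 19 lay between (median -0.18). The lower one was Traf5, an adaptor of OX40 and CD27, with 1117 in KO and 2369 in WT (2.14-fold; under the limit after normexp at -0.87). Traf6 was next at -0.79 ± 0.20. Of 14 NF-kB kinases, subunits and inhibitors with a value none was 2-fold apart (median -0.05). The subunit genes Nfkb1 and Rel are not among them. Nfkb1 had no named probe, and Rel passed the background flag on neither array (4.16 in KO, 2.77 in WT). The largest differences were those of Nfkbiz (-0.69 ± 0.20), an NF-kB cofactor, and of the kinase Ikbkb (-0.52 ± 0.20), with Map3k14, the kinase of the alternative pathway, at 0.52 ± 0.20. Of 7 death execution genes described here 1 was higher, none lower and 6 between (median 0.07). Mlkl, the pore-forming protein of necroptosis, read 4893 in KO and 2388 in WT (2.03-fold higher), a call lost under median centring (0.95) and normexp with replaced backgrounds (0.99). Casp8, which links death receptors to caspases, was at -0.72 ± 0.20.

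Of 4 genes of ligand and receptor processing with a value, 2 were higher, none lower and 2 between (median 0.84). The list is short, and over all named genes 10.8% were higher and 5.14% lower. Rhbdf2, encoding iRhom2, which matures and activates the TNF-shedding protease, read 2181 in KO and 549 in WT (3.94-fold higher, 1.98 ± 0.20), and its probes gave 1.96 and 1.98. Furin, a protease that cleaves precursors of several ligands, read 7633 in KO and 2770 in WT (2.73-fold higher). Adam17, the TNF-shedding protease itself, was nearly equal on the arrays (1127 in KO, 1155 in WT, -0.05 ± 0.20).

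**Figure D5:**
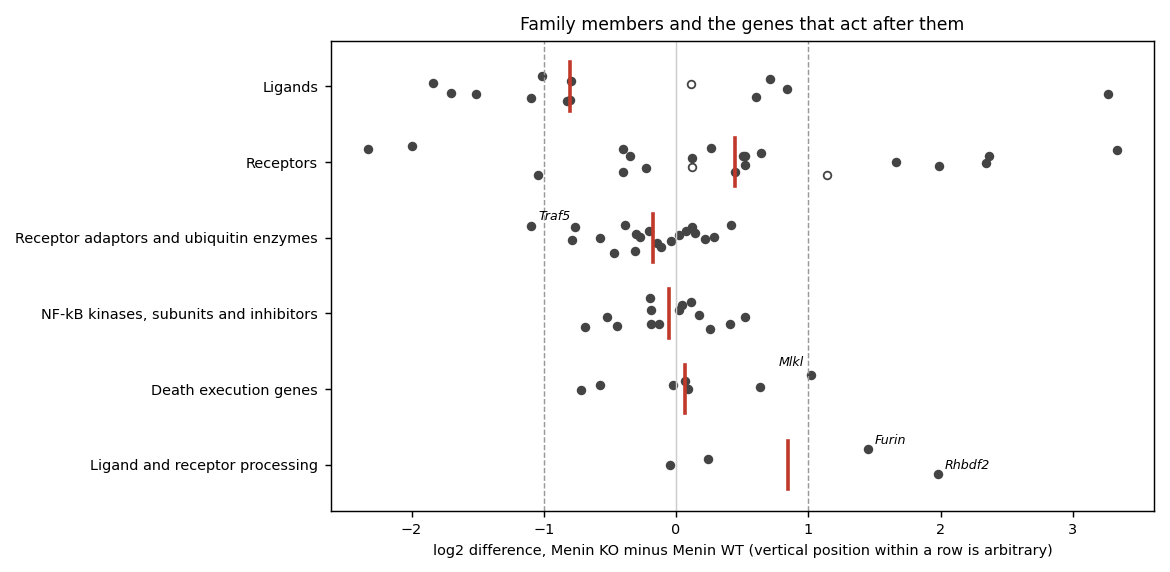
Log2 difference (KO minus WT) of each family member with a value and of each gene acting with or after the receptors, with 2-fold limits dashed, list medians as red bars and open points for bounds. Receptors spread from -2.33 to 3.33, and the NF-kB genes with a value stay between -0.69 and 0.52.

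Markers of other cell types were read beside these results. By the same rule 10.8% of all named genes were higher and 5.14% lower, and each marker list is short. The summed signals of the markers add the same probes on each array and are weighted to the brightest probe. Of 8 T cell markers on the CD4 T cell list, 7 are shared by all T cells. Cd4 itself read 279 in KO and 443 in WT (-0.68 ± 0.20), while Cd8a, the one CD8 T cell marker with a probe, read 3213 in KO and 312 in WT (10.2-fold higher). The 8 were well above background on both arrays and 0 were 2-fold apart, with Thy1 at 119433 in KO and 132209 in WT and Cd3d at 55593 in KO and 62714 in WT. Of 10 markers of macrophages, monocytes and dendritic cells, cells that make BAFF and carry the lymphotoxin beta receptor, 4 were higher, none lower, 5 between and 1 was a bound short of 2-fold. The summed signal was 1424 in KO and 495 in WT. The higher ones were Itgax (623 in KO, 20.0 in WT), Cd14 (256 in KO, 35.0 in WT), Adgre1 (71.8 in KO, 13.0 in WT) and Fcgr3 (134 in KO, 13.5 in WT), with Adgre1 and Fcgr3 near background in WT. Mpeg1 read 107.1 in KO and 165 in WT, Csf1r read 21.0 in KO and 27.3 in WT, and Lyz2 read 2.20 in KO, near background, and 19.5 in WT. Of 7 B cell markers with a value 2 were higher and none lower (summed signal 2330 in KO and 1308 in WT). The higher ones were Ms4a1 (266 in KO, 131 in WT, a log2 difference of 1.01) and Fcer2a (48.5 in KO, 20.6 in WT). The brightest, Cd79b (1155 in KO, 665 in WT) and Blnk (662 in KO, 363 in WT), were under 2-fold apart. Pax5 passed the background flag on neither array. Of 6 regulatory T cell markers, cells rich in GITR and OX40, 4 were lower and 2 between (5162 in KO and 10983 in WT summed). The lower ones were Gpr83 (32.2 in KO and 5965 in WT, most of the WT sum), Izumo1r (8.56-fold), Ikzf2 (3.82-fold by its brightest probe) and Foxp3 (at least 2.85-fold). The 4 probes of Ikzf2 gave log2 differences from -3.97 to -0.74, so not all reached 2-fold. Il2ra read 4312 in KO and 2963 in WT, and Ctla4 read 551 in KO and 564 in WT.

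Natural killer and innate T cell markers had 3 higher, 1 lower and 2 between of 7 with a value (9588 in KO and 3394 in WT summed). Over all named genes 10.8% were higher and 5.14% lower. The higher ones were Fcer1g (5087 in KO, 669 in WT, most of the KO sum), Tyrobp (1229 in KO, 253 in WT) and Klrb1c (700 in KO, 129 in WT). Klrd1 read 1959 in KO and 1198 in WT, under 2-fold apart. The lower one was Eomes, with 452 in KO and 1031 in WT (2.30-fold lower). Of 6 mast cell and basophil markers with a value 4 were higher and none lower (951 in KO and 149.6 in WT summed), with Cma1 at 296 in KO and 43.1 in WT and Cpa3 at 367 in KO and 28.2 in WT, and Ms4a2 passed the background flag on neither. Of 3 endothelial and stromal markers with a value none was higher and 1, Kdr, was lower. The signal summed over all 6 was 350.4 in KO and 248 in WT, with Pecam1 at 320.0 in KO and 202 in WT. Kdr read 7.67 in KO, where it was not well above background, and 26.8 in WT (at least 2.60-fold lower). Cdh5, Pdgfra and Vcam1 passed the background flag on neither. The part of these cell types in the differences of the family was not tested.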

How the data were processed

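Total RNA of 1 Menin KO and 1 Menin WT sample was labelled with Cy3 and read on 2 arrays of 1 slide. The intensity used is the processed signal the authors deposited, which per the file headers was background-subtracted and detrended by Feature Extraction 10.7.3.1, with probe annotation on mm9. Of 45018 spots, 43379 were non-control, and those with an outlier flag (103 in KO, 115 in WT) were left out. No spot was saturated. The authors' deposited log2 values, used as an alternative, track log2 of the processed signal, each array shifted by its own constant.

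Log2 signals were scaled to each array's 75th percentile and spots of a probe averaged. Names came from RefSeq (GRCm38.p6), with 27043 of 41174 probes named. A gene took its brightest probe of those passing the background flag in 1 or both samples, and a bound used the higher of the dim signal and the lowest signal well above background. The ± estimates come from the deposited error intensity of each spot. Over 146 probes with at least 5 usable spots the log2 difference varied with an SD of 0.132 (0.259 under a signal of 100, 0.0541 above).

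The members and lists were chosen with earlier results of these data known. All members were named, with pathway genes at least 2-fold apart or among the 2 largest differences of their list, Men1 and the 2 brightest markers of each cell type. Bach2, Adam17, Map3k14, Rel, Nfkb1, Csf1r, Lyz2, Cd4, the markers given as 2-fold apart, Tuba3a, Tnfsfm13 and the markers named as not well above background were added after the values were seen. For the death execution list, 1 gene is not reported here and was left out of its counts and median. Normexp (limma 3.58.1, offset 50) had been planned on median spot signals, with local backgrounds over 200 replaced in a second version. The other alternatives were quantile normalization, median centring, loess, the authors' values, other filters on dim probes, the mean over probes, outlier flags kept and other size rules. The procedure was tested on simulated data: of 67 genes given a 4-fold change 67 were called, of 67 given 1.5-fold 1, and of 12506 given none 0. With 1 array a group, variation between mice, cultures or labelling reactions could not be drawn from these data. The counts check the procedure and give no rate of false calls.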

Additional observations from a re-analysis of the deposited data

How the results depend on the processing

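Of the 15 members at least 2-fold apart, 9 kept that under all 10 alternatives other than another size rule: Tnf, Lta, Tnfsf8, Tnfsf13b, Fas, Tnfrsf8, Tnfrsf9, Tnfrsf12a and Cd27. No member that was 2-fold apart changed sign, whereas Tnfrsf10b, Tnfrsf22 and Cd40 did so after normexp (-0.29, -0.22 and -0.76). Of 381 single-gene values under the alternatives, 331 moved by less than the SD over spots (0.132) and 50 by more. Many of the 331 could not move further. Other filters and the mean over probes leave a single-probe gene well above background unchanged, and median centring shifts all genes alike. The count is therefore no measure of stability. After normexp 4 members were higher, without Tnfrsf21, Tnfrsf23 and Ltbr, and 7 were lower, with Tnfsf11 added and Ltb and Tnfrsf25 dropped. The receptor median was then -0.14, and 601 of all genes were higher and 1682 lower. With aberrant backgrounds replaced 5 members were lower, without Ltb, Cd40lg and Tnfrsf25, the ligand median was -0.53 and the receptor median 0.19, with 760 genes higher and 369 lower. The authors' values left Ltb under the limit, loess Cd40lg, and a filter on both arrays removed Tnfrsf23. With no filter on dim probes 1113 genes were lower and the ligand median was -0.61, dim members being added. With outlier flags kept the receptor median was 0.26; Tnfrsf1b then read -0.10 through its 1 flagged spot. At 1.5-fold 11 members were higher and 11 lower, with 2338 and 1712 of all genes; at 4-fold 4 and 1, with 542 and 158. The cause of the normexp shifts was not tested. No paired analysis was possible because each group holds 1 array and the labels carry no replicate numbers. Signals near background limit Ltbr, Tnfrsf21 and Tnfrsf23 in WT, Cd40lg in KO and Cd40 in both.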
